A study of Caenorhabditis elegans with 4 samples.

Results

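The dosage compensation complex of C. elegans binds both X chromosomes of XX animals, which are hermaphrodites, and lowers transcription from them so that X expression comes close to that of XO males. Its core is a condensin, a ring-shaped complex that also compacts chromosomes in mitosis, in which a dedicated SMC protein takes the place of the usual one. Further subunits bring this core to the X, and one subunit is an enzyme that changes a histone mark on X chromatin. Several subunits are known to be supplied by the mother, whereas the complex assembles on the X only when SDC-2 is made in the embryo. Genes for 10 subunits were taken by name: mix-1, dpy-27, dpy-26, dpy-28 and capg-1 for the condensin core, sdc-1, sdc-2, sdc-3 and dpy-30 for recruitment to the X, and dpy-21 for the demethylase. All 10 of them were on the array, out of 20040 genes in all, each as 1 transcript with 3 probes.

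RNA was measured on single-color NimbleGen expression arrays in 4 samples of early embryos of the wild-type strain N2, which form 1 group with no mutant, treatment or later stage beside it. Each sample came from a separate preparation of embryos, freed by bleach from gravid adults grown in liquid culture, and the methods describe a mixture of embryos at various early cell counts. Every value is thus an average over many embryos, their cells and their ages. Fewer cells that contain an RNA and less of that RNA in each cell cannot be told apart. Values are intensities as the authors normalized them, or their log2, and a mean is given with its SD over the 4 samples. With 1 group no test between conditions was possible, and none was made.

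Markers of the tissue were examined first. All 10 maternal germline RNAs that were examined, such as spn-4 and skn-1, and 9 of 13 early zygotic lineage genes were above the level of serpentine receptor genes. These encode mainly chemoreceptors of mature neurons. In each sample the level was set so that 34 of the 1344 serpentine receptor genes lay above it, which gave a log2 value of 8.47 to 8.70, and a gene had to exceed it in each of the 4 samples. Of all genes on the array 42% did so. Counts for other tissues were 0 of 6 yolk protein genes of the adult intestine, 4 of 10 genes of differentiated tissues and 13 of 30 major sperm protein genes, so that the differentiated and sperm lists were near the share of all genes. The summed intensity of the sperm genes was 10419, 10090, 16197 and 26564 in replicates 1 to 4 and was thus highest in replicate 4. That of the yolk protein genes was 653, 799, 824 and 1351, but its members went both ways, with vit-3, vit-4 and vit-6 highest and vit-1 and vit-2 lowest in replicate 4.

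All 10 genes of the complex had strong signals in every sample. Each exceeded the serpentine receptor level in all 4 samples, as did 42% of all genes, and the smallest margin of any member in any sample was 3.47 on the log2 scale, for dpy-28. Ranked on the mean into 5 bins of 4008 genes, all 10 fell in the highest bin, which by construction holds 20% of all genes. The median of the 10 mean log2 values was 13.82, against 7.82 over all genes. The range extended from 12.94 for dpy-28, close to the lower edge of that bin at 12.83, to 14.92 for dpy-27. Since the members are known maternal and embryonic genes and were chosen with earlier results in view, these counts describe the list and are not a test of it.

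**Figure D1:**
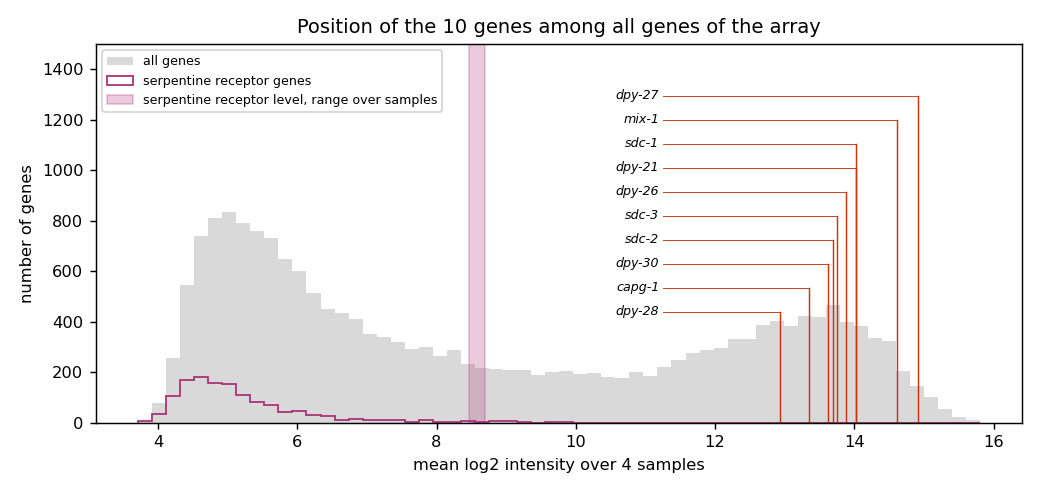
Distribution of the mean log2 intensity (x axis, over 4 samples) of all 20040 genes (grey, number of genes on the y axis) and of 1344 serpentine receptor genes (purple line), with a red line for each of the 10 genes of the complex. The shaded band is the serpentine receptor level, 8.47 to 8.70 over the 4 samples, and all 10 genes lie in the upper peak of the distribution, between 12.94 and 14.92.

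Among the condensin core genes, the strongest signal belonged to dpy-27 (R13G10.1, chromosome III), which encodes the SMC4-type ATPase found only in the dosage compensation complex. Its intensities were 33870, 29800, 25769 and 35510 in replicates 1 to 4. The mean log2 value was 14.92 ± 0.21 (SD, n = 4), the 98.8th percentile of all genes and rank 236 among them. Its partner in the ring, mix-1 (M106.1, chromosome II), encodes the SMC2-type ATPase shared by every condensin of the worm. For mix-1 the intensities were 26499, 25361, 22726 and 25417, with a mean log2 value of 14.61 ± 0.09 and percentiles of 96.0 to 97.7. This was the smallest SD of the 10 genes, and the highest sample was only 1.17-fold above the lowest.

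The other core genes encode the non-SMC subunits, which are shared with mitotic condensin I. The kleisin gene dpy-26 (C25G4.5, chromosome IV), whose product closes the ring, had intensities of 17206, 15658, 12230 and 15872 and a mean log2 value of 13.88 ± 0.21. For capg-1 (F29D11.2, chromosome I), which encodes a HEAT-repeat subunit, they were 9875, 11708, 8433 and 12366, with a mean of 13.36 ± 0.25. The second HEAT-repeat gene, dpy-28 (Y39A1B.3, chromosome III), had intensities of 9207, 9698, 4589 and 9305. Replicates 1, 2 and 4 of dpy-28 thus lay within a narrow band and replicate 3 was far below it, so that the highest sample was 2.11-fold above the lowest. The mean log2 value of 12.94 ± 0.52 for dpy-28 is the lowest mean and the largest SD of the 10 genes. In replicate 3 alone it ranked at the 74.0th percentile, below the highest bin, and in the other samples at the 83.3rd to 84.2nd.

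The genes for recruitment to the X had signals close to each other. The X-linked gene sdc-2 (C35C5.1) encodes a very large protein that is made in XX embryos and starts both X binding of the complex and hermaphrodite development. Its intensities were 15304, 14824, 13642 and 10108, a mean log2 value of 13.70 ± 0.27. Here replicate 4 was the low sample, at the 84.8th percentile of all genes, against the 89.0th to 91.1st in replicates 1 to 3. For sdc-3 (C25D7.3, chromosome V), a zinc finger protein needed with SDC-2 for loading, the intensities were 15336, 13786, 12500 and 13528, a mean of 13.75 ± 0.12. The second X-linked member, sdc-1 (F52E10.1), also encodes a zinc finger protein and had intensities of 17501, 16554, 14806 and 18257, a mean of 14.03 ± 0.13. The small protein DPY-30 belongs both to this complex and to the COMPASS complexes that methylate histone H3 at lysine 4. Its gene dpy-30 (ZK863.6, chromosome V) had intensities of 12605, 14288, 11448 and 12111, a mean log2 value of 13.62 ± 0.14.

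The demethylase gene dpy-21 (Y59A8B.1, chromosome V) encodes a Jumonji enzyme that converts dimethylated to monomethylated H4 lysine 20 on the X. It was represented by its isoform a and had intensities of 21290, 17232, 11446 and 18598, a mean log2 value of 14.03 ± 0.39. As for dpy-28, replicate 3 was the low sample, although for dpy-21 the other samples were also spread. The highest sample of dpy-21 was 1.86-fold above the lowest, the second largest such ratio among the 10 genes, and its percentile was 86.2 in replicate 3 and 92.8 to 95.5 in the others.

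**Figure D2:**
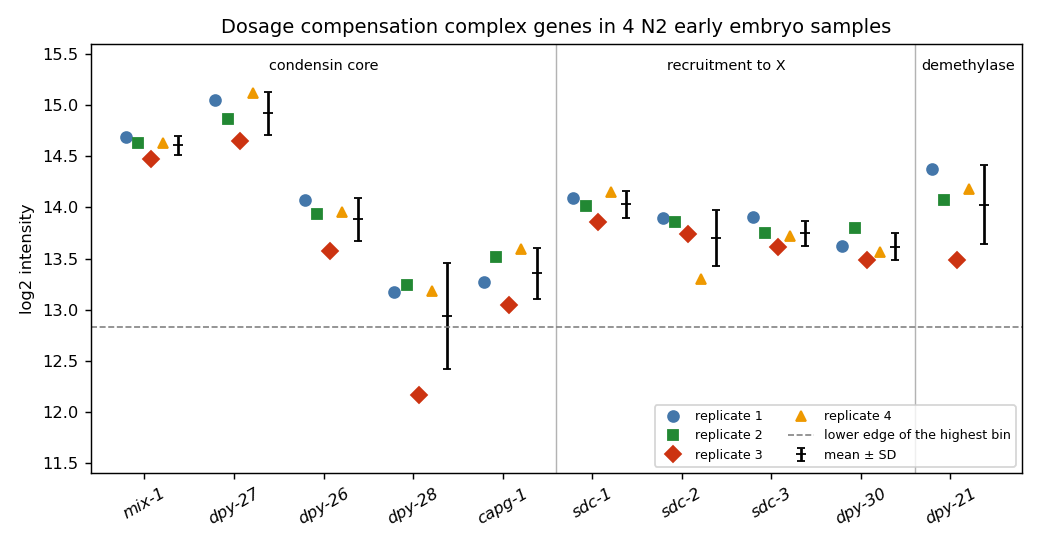
Log2 intensity (y axis) of the 10 genes in each of the 4 samples (colored symbols), with the mean and SD at the right of each gene and the genes grouped by the role of their product. The dashed line is the lower edge of the highest expression bin, 12.83. Replicate 3 (red diamonds) is the lowest sample for 9 genes and replicate 4 (orange triangles) for sdc-2, and 1 single value, dpy-28 in replicate 3, lies below the dashed line.

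Ordered by their mean signal on the log2 scale, the genes ran from dpy-27 through mix-1, sdc-1, dpy-21, dpy-26, sdc-3, sdc-2, dpy-30 and capg-1 to dpy-28. The ranges of the 4 samples overlapped for 8 of the 9 neighbouring pairs, a comparison that leaves aside that both genes of a pair were read on the same arrays. The exception was mix-1 over sdc-1, where the mean log2 difference was 0.58 ± 0.07 (SD, n = 4). For dpy-27 over mix-1 (0.31 ± 0.13) and capg-1 over dpy-28 (0.42 ± 0.33) the ranges overlapped but the order was the same in 4 of 4 samples. At the other extreme, sdc-1 and dpy-21 had the same mean to within 0.001, and sdc-1 was above dpy-21 in 1 of 4 samples. Probes differ in affinity, so this is an order of signals and not of RNA amounts.

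Variation between preparations had a common direction. Replicate 3 was the lowest of the 4 samples for 9 of the 10 genes, all except sdc-2, a pattern that was noticed in the values and not fixed beforehand. Over all genes of the array, 26.5% had their lowest value in replicate 3, and over the genes of the highest bin 31.4% did. All 5 core genes were lowest in replicate 3, as were dpy-21, sdc-1, sdc-3 and dpy-30. The highest sample varied more, being replicate 1 for mix-1, dpy-21, dpy-26, sdc-3 and sdc-2, replicate 2 for dpy-30 and dpy-28, and replicate 4 for dpy-27, sdc-1 and capg-1. The median SD of the 10 genes was 0.21 on the log2 scale, against 0.17 over the highest bin and 0.35 over all genes.

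To set shifts of a whole array aside, each log2 value was compared with the mean of the same gene in the other 3 samples, and the median of the same difference over genes of like level was subtracted. By this measure the deviations in replicate 3 were -1.11 for dpy-28, -0.75 for dpy-21, -0.52 for capg-1, -0.43 for dpy-26 and -0.27 for dpy-27. They were smaller, from -0.23 to -0.15, for sdc-1, dpy-30, sdc-3 and mix-1, and -0.01 for sdc-2, which was above 0 with fewer matched genes (0.04) and with no matching (0.05). The 3 members below -0.5, namely dpy-28, dpy-21 and capg-1, compare with 8.88% of all genes in the highest bin. Among the 24 partner and pathway genes described below, 4 were also below -0.5 in replicate 3. So were 296 of 997 X-linked genes and 801 of 7207 autosomal genes above the serpentine receptor level. In replicate 4 the share of the bin below -0.5 was 1.2%, and the lowest member was sdc-2, at -0.49, which became -0.51 with more level-matched genes and -0.53 with no matching. Thus sdc-2 stood at -0.01 in the sample where the others were low and at -0.49 in replicate 4, where the other 9 genes lay between -0.04 and 0.35.

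Being lowest in replicate 4, as sdc-2 alone was of the 10 genes, was seen for 25% of the highest bin. Over the 4 samples, the centred values of mix-1 and sdc-3 were the closest of any pair of members, with a root mean square difference of 0.044 on the log2 scale, followed by mix-1 with sdc-1, at 0.058. Those of sdc-2 and dpy-28 were the farthest apart, at 0.52. By the same measure, the genes of the array closest in pattern to dpy-28 were sup-26 (0.014), crb-1 (0.026) and gtnt-1 (0.038). For sdc-2 they were MTCE.26 (0.020), irld-33 (0.022) and sdz-14 (0.028). The mean signals of gtnt-1 (4.87) and irld-33 (5.07) lay far below the serpentine receptor level. With 20040 genes and only 4 samples some close matches will be found for any pattern, and these are given as a description.

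**Figure D3:**
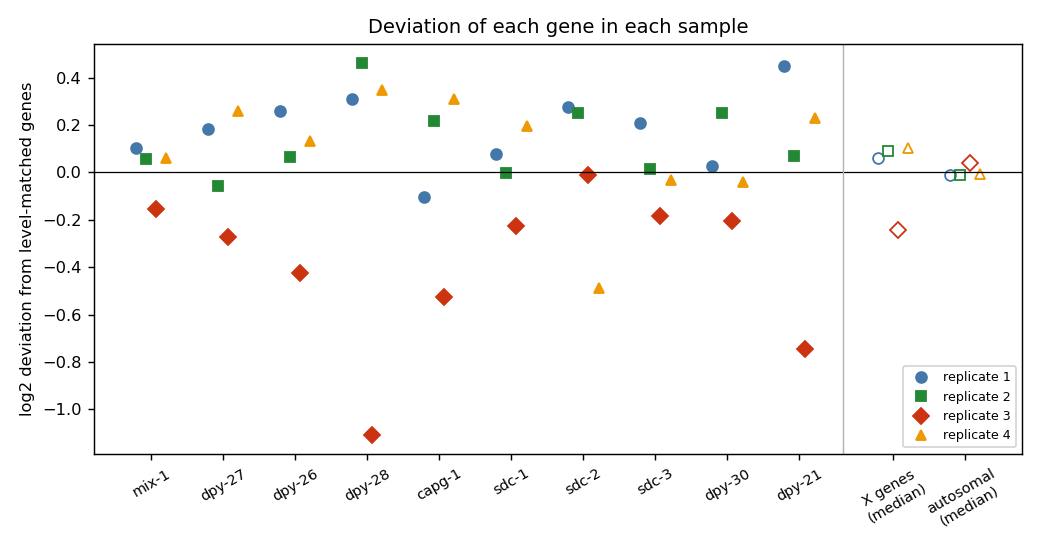
Log2 deviation of each gene from level-matched genes (y axis, 0 meaning no deviation) in each of the 4 samples, for the 10 genes of the complex (filled symbols) and as the median over X-linked and autosomal genes above the serpentine receptor level (open symbols). Replicate 3 lies below 0 for the 9 genes other than sdc-2, most for dpy-28 at -1.11, near 0 for sdc-2 and at -0.24 for X-linked genes, whereas sdc-2 is lowest in replicate 4, at -0.49.

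Other gene classes also stood apart in replicate 3. The 10 genes of differentiated tissues had a median deviation of -0.79 there and of 0.43, 0.36 and 0.17 in replicates 1, 2 and 4. In replicate 3 they ranged from -1.84 for unc-15 to 0.03 for snb-1, with the muscle myosin gene unc-54 at -1.72. Only 4 of the 10 exceeded the serpentine receptor level in every sample, so several of these deviations are of weak signals. Maternal germline RNAs had medians of 0.13 in replicate 3 and -0.12, 0.10 and -0.05 in replicates 1, 2 and 4. Their members went both ways in replicate 3, from -0.67 for skn-1 to 0.29 for spn-4. For early zygotic lineage genes the median was -0.08 in replicate 3 and 0.25 in replicate 4. These genes also went both ways in replicate 3, from -0.89 for hlh-1 to 0.36 for end-1. In replicate 4 the medians were 1.5 for sperm genes and 0.72 for yolk protein genes, among which vit-1 was at -1.17 and vit-4 at 1.96. The mixture of embryo ages in each sample is not given in the labels, and its part in the values of the complex was not tested.

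Expressed X-linked genes, on which the complex acts, were lower in replicate 3 as well. Of 997 X-linked genes above the serpentine receptor level, 53.0% had their lowest value in replicate 3, against 27.1% of 7207 autosomal genes above it. The median deviation in replicate 3 was -0.24 for these X-linked genes and 0.04 for the autosomal genes. In replicates 1, 2 and 4 the medians were 0.06, 0.09 and 0.10 for X-linked genes and between -0.01 and 0.00 for autosomal genes. The 2 X-linked members, sdc-1 and sdc-2, had deviations of -0.23 and -0.01 in replicate 3, and the 8 autosomal members of the complex were all lowest in that sample. Whether the values of X-linked genes and those of the complex were related was not tested.

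Subunits of the other condensins also had strong signals. SMC-4 takes the place of DPY-27 in mitotic condensin I, and HCP-6, KLE-2 and CAPG-2 are the non-SMC subunits of condensin II. All 4 genes fell in the highest bin, which holds 20% of all genes. Their median log2 value was 14.05, against 13.79 for all genes in that bin. For smc-4 the intensities were 28631, 28352, 24700 and 26866, a mean log2 value of 14.73 ± 0.10, which lay within the range of dpy-27. The signals of dpy-27 spanned 1.38-fold over the samples and those of smc-4 1.16-fold. The means were 14.19 ± 0.13 for hcp-6, 13.91 ± 0.10 for kle-2 and 13.03 ± 0.22 for capg-2. In replicate 3 their deviations were -0.23 for smc-4, -0.20 for hcp-6, -0.11 for kle-2 and -0.48 for capg-2, against -1.11 for dpy-28, which is the counterpart of hcp-6, and -0.52 for capg-1, that of capg-2. Probes of related genes may share RNA, which the files do not resolve.

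COMPASS partners of DPY-30 were also all in the highest bin, 6 of 6 against 20% of all genes, with a median log2 value of 13.81. The methyltransferase genes set-2 and set-16 had means of 14.51 ± 0.23 and 13.73 ± 0.23. The structural subunits followed with 14.86 ± 0.13 for wdr-5.1, 13.31 ± 0.23 for ash-2, 13.71 ± 0.18 for rbbp-5 and 13.89 ± 0.18 for cfp-1, whose product binds CpG-rich promoters in other animals. In replicate 3, 5 of the 6 genes were at their lowest, as were 31.4% of the genes in the highest bin. Their deviations there were -0.49 for set-16, -0.43 for set-2, -0.41 for ash-2, -0.39 for cfp-1 and -0.22 for wdr-5.1, and that of rbbp-5 was 0.01. The deviation of dpy-30 itself, -0.21, was near that of wdr-5.1.

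Of the partner and pathway lists, the X signal and sex switch genes had the widest range of signals. The switch gene xol-1, which promotes male development, is repressed in XX embryos by proteins encoded on the X and is kept active by proteins encoded on autosomes, and it prevents SDC-2 from acting. Its intensities were 1325, 1439, 1608 and 1527, a mean log2 value of 10.52 ± 0.12, at the 64.7th percentile and in the fourth bin. In contrast, the X signal genes stood in the highest bin, which holds 20% of all genes. Their means were 14.63 ± 0.16 for the nuclear receptor gene sex-1, 13.98 ± 0.29 for the RNA-binding protein gene fox-1 and 13.00 ± 0.28 for the homeobox gene ceh-39. Among the autosomal signals, the T-box gene sea-1 had a mean of 14.55 ± 0.06.

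The zinc finger gene sea-2, the other autosomal signal, had intensities of 9165, 9897, 2687 and 6063, a mean of 12.60 ± 0.86. Its deviation of -1.72 in replicate 3 was lower than that of any member of the complex, and its highest sample was 3.68-fold above the lowest. Other genes of this list had deviations in replicate 3 of -0.61 for ceh-39, -0.55 for fox-1 and -0.20 for sex-1. Those of xol-1, sea-1 and her-1 were 0.03, 0.04 and 0.09. The male-determining gene her-1, which the SDC proteins repress in XX animals, was the only gene of the partner and pathway lists that did not exceed the serpentine receptor level, in 0 of 4 samples. Its intensities were 154, 224, 264 and 329, a mean log2 value of 7.87 ± 0.46. The 2 isoforms of her-1 differed in spread, with SDs of 0.18 and 0.94.

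**Figure D4:**
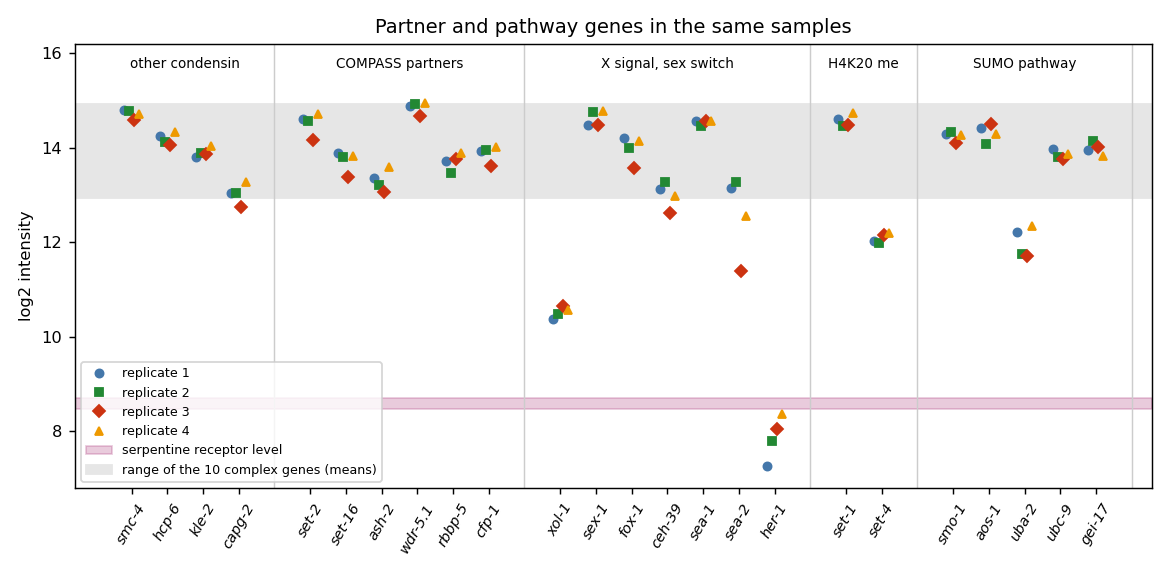
Log2 intensity (y axis) of 24 partner and pathway genes in the 4 samples (colored symbols), grouped by list. The grey band is the range of the means of the 10 complex genes, 12.94 to 14.92, and the purple band the serpentine receptor level. Most genes lie in the grey band, and xol-1 at 10.52 and her-1 at 7.87 are the lowest.

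Enzymes of the histone mark that DPY-21 edits and of the SUMO pathway, which modifies several subunits, had signals in the same range or somewhat below it. The H4K20 monomethyltransferase gene set-1 had a mean log2 value of 14.58 ± 0.12, and set-4, which adds further methyl groups, had 12.09 ± 0.10, with intensities of 4176, 4065, 4562 and 4676. Both thus varied less over the samples than dpy-21 (SD 0.39), and in replicate 3 their deviations were -0.11 and 0.03, against -0.75 for dpy-21. Of the SUMO genes, smo-1, which encodes SUMO, had 14.25 ± 0.10, the activating enzyme genes aos-1 and uba-2 had 14.33 ± 0.18 and 12.01 ± 0.33, the conjugating enzyme gene ubc-9 had 13.86 ± 0.09 and the ligase gene gei-17 had 13.99 ± 0.13. All 5 exceeded the serpentine receptor level, and 4 were in the highest bin, which holds 20% of all genes. Across the 24 partner and pathway genes, 23 exceeded that level and 15 were lowest in replicate 3, against 10 and 9 of the 10 genes of the complex. Over all genes these shares were 42% and 26.5%, and 31.4% of the highest bin were lowest in replicate 3. A low value in replicate 3 was therefore not particular to the complex.

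Position on the chromosomes did not unite the members, which lay on all 6 chromosomes. Their nearest protein-coding neighbours on the array, 20 in all and named here after their values were seen, were like the array as a whole. Of these, 9 exceeded the serpentine receptor level and 4 were in the highest bin, against 42% and 20% of all genes, among them rnp-1 beside dpy-30, at 13.70 ± 0.15, and amx-1 beside dpy-27, at 14.00 ± 0.07. Both neighbours of sdc-2 (hpo-34 at 6.70 ± 0.46 and C35C5.8 at 6.76 ± 0.34), both of sdc-3 (melo-3 at 7.18 ± 0.27 and fbxa-82 at 4.90 ± 0.38) and both of sdc-1 (ifa-3 at 9.15 ± 0.93 and F52E10.2 at 6.11 ± 0.78) did not exceed that level in every sample. In contrast, both neighbours of dpy-26 (C25G4.3 at 10.85 ± 0.23 and spe-44 at 12.38 ± 0.34) and both of capg-1 (lrp-1 at 11.79 ± 0.50 and F26A3.1 at 13.34 ± 0.16) exceeded it. For the remaining members the neighbours differed in this.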

How the data were processed

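RNA of 4 N2 early embryo preparations was hybridized to single-color NimbleGen arrays. The authors applied quantile normalization and then RMA, also named in the submitters' processing notes, to obtain 1 value per transcript and array. The deposited files hold these as linear intensities, with no detection call. The sources used here give no array annotation, genome build or software version for them. The paper states a DNase treatment for only some of the samples and the labels for all, so samples are not divided by it.

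Log2 was taken of the deposited intensities without a pseudocount, transcripts of a gene were averaged (23180 transcripts, 20040 genes), and means and SDs were taken over the 4 samples. Symbols and chromosomes came from a RefSeq table (WBcel235), which matched 19383 genes. No filter was applied and no test between groups was made; Dixon's criterion was used to mark single samples far from the others of a gene. Level-matched deviations used the genes nearest in mean, out of 18593 outside all lists. Their calculation was tried on simulated arrays with independent noise of the same size at every level. In the data the median SD was 0.35 over all genes and 0.17 over the highest bin. The simulation therefore checked the calculation only and not how the measure behaves in these data. Depth has no count here: the number of arrays limits the precision, and with nothing but separate preparations behind the replicates, SDs cover preparation and array together. The alternatives tried were the omission of each replicate, medians in place of means, linear averaging, the highest transcript, the series value table (0 of 92720 values differed by more than 0.0001), a common median, other percentiles, bins and numbers of matched genes. Percentile ranks, a common median and matched deviations for the lowest sample were added after seeing the data.

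Members and lists were chosen with earlier results of these data known. Named genes were all members, all partner and pathway genes, the 3 nearest in pattern to sdc-2 and to the member with the largest SD, extremes of the marker lists, and, after their values were seen, unc-54, yolk protein genes and neighbouring genes. No sequences were used. Python 3.11.15, numpy 2.4.6, pandas 2.3.3 and matplotlib 3.10.9 were used.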

Additional observations from a re-analysis of the deposited data

Results flagged for a closer look

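In 3 of 34 genes, the 10 of the complex and the 24 partner and pathway genes, 1 sample lay far from the other 3, meaning that its gap to the nearest sample, as a share of the whole range, exceeded Dixon's 95% critical value for 4 samples. The critical value is set so that chance gives this for about 1 in 20 genes if values are normally distributed. The share over all genes of the array is not given here, so 3 of 34 is not read as an excess. For dpy-28 the low sample was replicate 3, whose gap was 0.931 of the range, at a log2 value of 12.16 against 13.17 to 13.24 in the others. It was also replicate 3 for set-16, with a gap of 0.863 of the range. For sea-1 it was replicate 2, with a gap of 0.999 of a range that was itself small, the SD being 0.06.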

How the results depend on the processing

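Of 339 values recomputed under alternatives, 338 stayed within 1 SD, or within 1.5 times for counts. The exception was the number of genes of the complex in the highest bin, which was 5 with 10 bins in place of 10 genes with 5 bins, because a bin then holds fewer genes; dpy-28, dpy-30, sdc-2, sdc-3 and capg-1 fell outside it. Leaving out a replicate moved a mean level by at most 0.26 (log2), for dpy-28 without replicate 3. Neither such an omission nor a median over samples could move the level of a member by more than 1 SD. The highest transcript, the series table and a common median left the level of each member unchanged by construction. For the levels of members, staying within 1 SD was thus nearly fixed in advance and does not show robustness. The count of genes lowest in replicate 3 was 9 by percentile ranks, with arrays shifted to one median and by matched deviations, all added after seeing the data; linear averaging, the highest transcript and the series table could not change it, since each member has 1 transcript and the table is identical. Without level matching, 2 genes (dpy-21 and dpy-28) lay below -0.5 in replicate 3 in place of 3, and sdc-2 passed below -0.5 in replicate 4 (-0.53), as it did with more matched genes (-0.51). No paired analysis was possible because there is 1 group. Without a background measurement, low signals such as that of her-1 cannot be called absent.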
